A study of Mus musculus with 16 samples.

Results

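Chromatin accessibility was examined at 10 genes of the naive pluripotency network of mouse embryonic stem cells: Pou5f1, Sox2, Nanog, Klf2, Klf4, Esrrb, Zfp42, Tfcp2l1, Tbx3 and Dppa5a. They were chosen by name, out of 19165 named protein-coding genes. For each gene the window of 5000 bp whose midpoint lay nearest to the transcription start site (TSS), and within 650 bp of it, was taken from the 38053 windows of the authors' deposited table. All accessible regions from 20 kb before to 20 kb after the gene body were taken as well. All 10 genes had a window, and 122 of the 127646 accessible regions lay near them.

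The cells were mouse embryonic stem cells with the genotype FOXD3-iKO in every group, grown in a medium labelled L2i. Tamoxifen (4HT) was added to deplete the forkhead transcription factor FOXD3, and ethanol (EtOH) was the control; the labelled treatment time was 24 h. Cells were then sorted by DNA content after DAPI staining into the fractions G1, ES, LS and G2, and the names ES and LS are kept as labelled. Open DNA was profiled by ATAC-seq, which uses a transposase to tag accessible chromatin with adaptors. The 8 groups of treatment and fraction comprised 2 libraries each, 16 in all, and the deposited tables hold 1 pooled column per group. Every value below is therefore a pooled value of the authors without an SD. The labels give neither the clone number of the line nor the Cre or promoter behind the depletion.

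Naive pluripotency is held by a network of transcription factors that bind one another's enhancers. Pou5f1 (OCT4), a POU domain protein, and Sox2, an HMG box protein, bind DNA together at a composite site, and the homeobox protein Nanog works alongside them. The zinc finger proteins Klf2 and Klf4, the orphan nuclear receptor Esrrb, Tfcp2l1 and the T-box protein Tbx3 are the ancillary factors through which LIF and inhibitors of differentiation signals sustain the state. Zfp42 (REX1) and Dppa5a, an RNA-binding protein, are targets and widely used markers of it.

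Upstream promoter sequences were available from RefSeq (build GRCm38.p6, the assembly named mm10) for 8 of the 10 genes; Tbx3 and Dppa5a were not matched. Of each, the 250 bases before the TSS are printed from 5′ to 3′ on the strand of the gene. The promoters of Zfp42 (chr8:43307010-43307259, minus strand) and Nanog (chr6:122707239-122707488, plus strand) are shown because they hold motifs of the network. That of Klf2 (chr8:72318812-72319061, plus strand) is shown because Klf2 had the highest window of the 10 genes. That of Tfcp2l1 (chr1:118627695-118627944, plus strand) is shown because 216 of its 250 bases lie in the promoter region with the lowest treatment difference. Capitals mark motif matches, and a promoter without a match is in lower case throughout.
Zfp42: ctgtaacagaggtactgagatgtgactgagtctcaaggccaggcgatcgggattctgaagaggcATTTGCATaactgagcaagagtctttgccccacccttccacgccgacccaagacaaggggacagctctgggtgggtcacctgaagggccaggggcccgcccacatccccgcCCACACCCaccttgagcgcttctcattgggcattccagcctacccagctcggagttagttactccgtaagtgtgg
Nanog: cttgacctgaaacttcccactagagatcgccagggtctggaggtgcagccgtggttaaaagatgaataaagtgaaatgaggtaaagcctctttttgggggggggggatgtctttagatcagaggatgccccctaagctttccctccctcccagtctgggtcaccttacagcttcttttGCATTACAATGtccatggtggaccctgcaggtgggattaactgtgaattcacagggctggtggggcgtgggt
Klf2: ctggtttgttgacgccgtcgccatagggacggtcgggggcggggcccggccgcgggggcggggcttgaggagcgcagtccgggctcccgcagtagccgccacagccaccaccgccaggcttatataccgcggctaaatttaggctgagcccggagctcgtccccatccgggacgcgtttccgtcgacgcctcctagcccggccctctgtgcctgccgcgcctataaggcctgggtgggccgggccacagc
Tfcp2l1: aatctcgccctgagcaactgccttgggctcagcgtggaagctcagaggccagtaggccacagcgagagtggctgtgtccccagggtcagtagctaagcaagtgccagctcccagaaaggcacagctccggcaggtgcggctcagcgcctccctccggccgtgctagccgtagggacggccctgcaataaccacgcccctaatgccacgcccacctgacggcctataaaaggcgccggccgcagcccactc

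Both strands were searched for 7 motifs in 32851 promoters of this length. The octamer of POU factors, ATGCAAAT, was present in 1.601% of all promoters and in that of Zfp42, on the opposite strand with its first printed base 186 bases before the TSS. The Zfp42 promoter also held CCACACCC, a box of KLF factors found in 3.20% of all promoters, 75 bases before the TSS. The composite core TTGTNATGC, found in 0.648% of all promoters, occurred in Nanog on the opposite strand, 72 bases before the TSS. It overlapped a match of the SOX site CATTGT (10.7% of all promoters), and the capitals of the Nanog sequence span both. Nanog has a further annotated TSS at position 122707565 of chromosome 6, whose upstream bases hold the same pair of matches. CATTGT also occurred before a downstream TSS of Pou5f1 at position 35508807 of chromosome 17, and TTCNNNGAA, the STAT element (7.02%), before the upstream TSS of Esrrb. AAGGTCA, the core site of nuclear receptors (4.08%), and TGTTTAC, the forkhead core (3.17%), had no match in the 11 promoters of these genes.

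The promoters also differed in CpG content. The ratio of observed to expected CpG was 0.941 at Klf4, 0.915 at Klf2, 0.833 at Sox2 and 0.609 at Tfcp2l1, against a median of 0.374 over all promoters. It was 0.424 at Zfp42, 0.334 at Pou5f1, 0.264 at the upstream TSS of Esrrb and 0.182 at the first TSS of Nanog. High and low TSS windows occurred with both kinds of promoter. The windows of Klf2 and Pou5f1 were the highest, and those of Klf4 and Nanog were among the lowest. A window of 5000 bp holds more than the promoter, however. That of Pou5f1 includes regions centred 1.90 kb and 1.12 kb before the TSS, with levels (defined below) of 6.09 and 3.36. The region at the Pou5f1 TSS had 2.49.

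The deposited signal is coverage scaled to library size and averaged over bases covered by a read, so it is a value per covered base. It does not show how much of an interval was covered. Comparisons of levels between genes below carry this limit. Its smallest value in each column was read as the worth of 1 read, which implies 6.78 to 11.2 M reads per column. The shallowest was 4HT G1, where the 1-read value was 0.147, against 0.0895 to 0.122 in the other 7 columns. A level below is the signal divided by the 1-read value of its column, averaged over the columns with a read. Signal cannot fall under the 1-read value, and so losses are understated, most of all at weak intervals. In sorted bulk cells, fewer cells with an open site and less opening per cell cannot be told apart.

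The TSS windows of the 10 genes, except that of Esrrb, lay above the median of protein-coding windows. Klf2 had the highest TSS window (level 2.73), followed by Pou5f1 (2.65), Zfp42 (2.58), Tbx3 (2.20), Dppa5a (1.92), Tfcp2l1 (1.81), Sox2 (1.58), Klf4 (1.51), Nanog (1.43) and Esrrb (1.25). The median of the 10 was 1.87, and that of the 18031 windows of protein-coding genes with a read in every column was 1.35. Among those windows Klf2, Pou5f1 and Zfp42 stood at the 97.6, 97.3 and 97.0 percentile. Tbx3 stood at the 93.8, Dppa5a at the 88.3 and Tfcp2l1 at the 84.8. Lower were Sox2 at the 72.9, Klf4 at the 67.6, Nanog at the 59.3 and Esrrb at the 34.6. Neighbours in this order were not separated by the spread over columns: each gene exceeded the next in only 4 to 6 of the 8 columns.

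**Figure D1:**
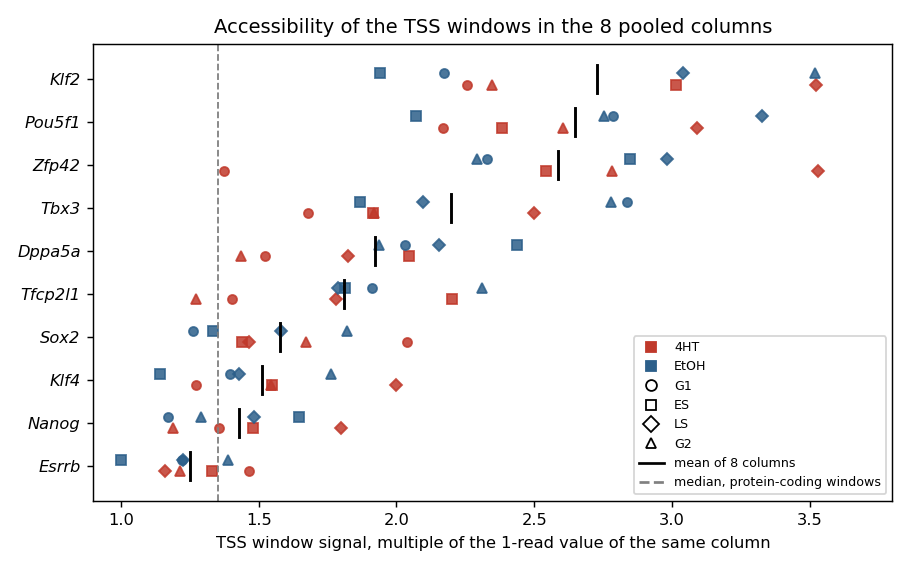
Signal of the TSS window of each gene in the 8 pooled columns, as a multiple of the 1-read value (x axis); colour gives the treatment, the symbol the fraction, the bar the mean of 8 columns and the dashed line the median of protein-coding windows (1.35). Klf2 and Pou5f1 lie to the right of the dashed line in every column, whereas Nanog and Esrrb straddle it.

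Among the 3 core factors, the Pou5f1 window (chr17:35503388-35508387) had signals of 0.320, 0.244, 0.279 and 0.294 with 4HT, in the order G1, ES, LS, G2, against 0.280, 0.247, 0.407 and 0.246 with EtOH. EtOH LS was its highest column, and the treatments overlapped. Sox2 (chr3:34647356-34652355) gave 0.301, 0.148, 0.132 and 0.188 with 4HT and 0.127, 0.159, 0.193 and 0.163 with EtOH, so that 4HT G1 stood above the other 7 columns. Nanog (chr6:122704840-122709839) gave 0.200, 0.152, 0.162 and 0.134 with 4HT and 0.117, 0.196, 0.181 and 0.116 with EtOH. Its levels, 1.17 to 1.80, remained near the protein-coding median in all columns.

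Of the ancillary factors, the Klf2 window (chr8:72316384-72321383) had signals of 0.333, 0.309, 0.318 and 0.265 with 4HT and 0.218, 0.232, 0.372 and 0.315 with EtOH. Klf4 (chr4:55530117-55535116), its close relative, gave lower signals in every column: 0.188, 0.159, 0.180 and 0.174 with 4HT and 0.140, 0.136, 0.175 and 0.158 with EtOH. Tbx3 (chr5:119668020-119673019) gave 0.248, 0.196, 0.226 and 0.216 with 4HT and 0.285, 0.223, 0.257 and 0.249 with EtOH. In none of the 3 did the treatments separate. Tfcp2l1 (chr1:118625296-118630295) gave 0.207, 0.226, 0.161 and 0.143 with 4HT and 0.192, 0.216, 0.219 and 0.207 with EtOH, with its lowest signals in LS and G2 after 4HT. Esrrb (chr12:86358468-86363467) gave 0.216, 0.136, 0.105 and 0.137 with 4HT and 0.123, 0.119, 0.150 and 0.124 with EtOH. These were close to the 1-read value of each column, and the Esrrb window fell short of the minimum level of 1.3 set for testing.

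The marker genes had higher windows than Nanog and Sox2. Zfp42 (chr8:43304660-43309659) gave 0.203, 0.261, 0.318 and 0.314 with 4HT and 0.234, 0.340, 0.365 and 0.205 with EtOH, with ES and LS above G1 in both treatments. Dppa5a (chr9:78365828-78370827) gave 0.224, 0.210, 0.165 and 0.162 with 4HT and 0.204, 0.291, 0.264 and 0.173 with EtOH. The ES and LS columns of EtOH were its highest.

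The accessible regions around the genes were also read more often than regions elsewhere. Of the 122, 68 (55.7%) had a read in every column, against 30.4% of all regions and 34.6% of the 93658 regions within 20 kb of a protein-coding gene. Among regions with a read in every column the median level was 2.01 near the 10 genes and 1.61 overall. A level of at least 2 in addition, the minimum for testing regions, was reached by 34 (27.9%), against 8.63% of all regions. In any 1 column 103 to 116 of the 122 held a read. This minimum leaves out regions that lost all reads in any column, and the 34 are not all of the 122.

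The density of accessible regions differed between the genes. Regions per 10 kb stood at the 99.7 percentile of protein-coding genes for Nanog (14 regions), 99.6 for Dppa5a (12), 98.1 for Klf2 (10), 95.5 for Pou5f1 (9) and 94.0 for Sox2 (8). Tfcp2l1 (17 regions), Zfp42 (9), Klf4 (7) and Esrrb (30) stood at the 91.7, 91.4, 86.7 and 85.5 percentile, and Tbx3 (6) at the 69.8. Of the 122, 14 lay within 1 kb of a TSS of the gene, 40 in the gene body, 33 upstream and 35 downstream. The promoter regions had a read in every column in 11 of 14, against 67.6% of all regions within 1 kb of a protein-coding TSS.

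**Figure D2:**
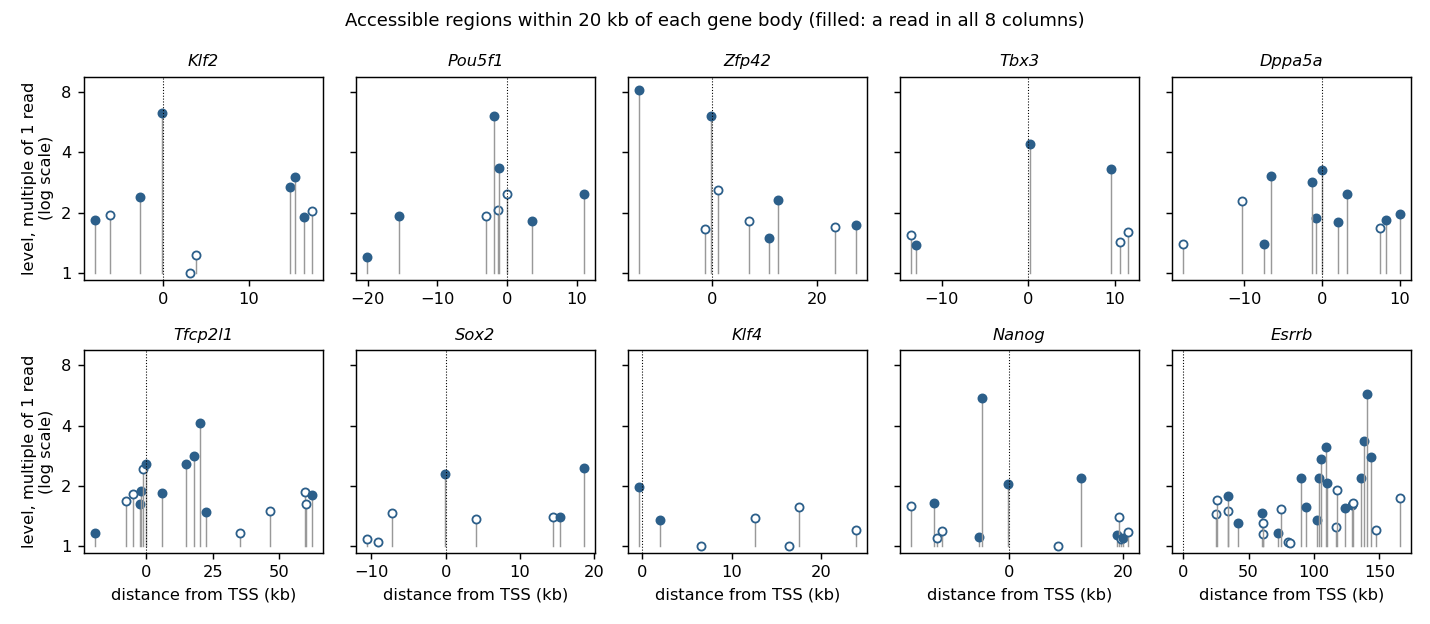
Accessible regions within 20 kb of each gene body by distance from the TSS in the direction of transcription (x axis, kb) and mean level (y axis, multiple of 1 read, log scale); filled points had a read in all 8 columns. The highest point lies at the promoter of Klf2, Tbx3, Dppa5a and Klf4, upstream of Pou5f1, Zfp42 and Nanog, within Tfcp2l1 and Esrrb, and downstream of Sox2.

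The strongest region of the set lay upstream of Zfp42 (chr8:43320500-43321325), 13.9 kb before its TSS, outside any annotated gene. Its level of 8.19 stood at the 99.7 percentile of all regions with a read in every column. Its signals were 0.614, 0.7998, 1.21 and 0.679 with 4HT, in the order G1, ES, LS, G2, against 0.468, 0.928, 1.15 and 1.10 with EtOH. G1 was its lowest fraction in both treatments. The promoter region of Zfp42 (chr8:43306904-43307524), which contains the 250 bases printed above, had a level of 6.11.

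Pou5f1 has a proximal and a distal enhancer upstream of its TSS, the distal one being the element used in naive cells. The 2 tested regions there were centred 1.90 kb (chr17:35503875-35504382, level 6.09) and 1.12 kb (chr17:35504815-35505017, level 3.36) before the TSS, and both overlap the predicted gene Gm32362. A region at the TSS itself (chr17:35505908-35506021) had a level of 2.49 and a read in 7 columns. Another tested region of Pou5f1, 10.97 kb downstream with a level of 2.47, lies in Tcf19 and Cchcr1 at the TSS of the latter. At Nanog, likewise, the region 4.73 kb upstream (chr6:122702292-122703236) reached 5.48, at the 98.7 percentile, and the promoter region (chr6:122707099-122707623) 2.05. A region of level 2.19 lay 12.6 kb downstream.

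Within 20 kb of its gene body Sox2 had weaker regions than Pou5f1 and Nanog. The levels of regions further from Sox2, where other enhancers may lie, were not examined. Its promoter region (chr3:34649501-34650210), within the overlapping long non-coding gene Sox2ot, had a level of 2.30, and a region 18.6 kb downstream, also in Sox2ot, 2.48. The other 6 regions within 20 kb had levels of 1.06 to 1.47. One of these, 4.06 kb downstream (chr3:34653947-34654171), where an enhancer of Sox2 is known, stood at 1.38 with a read in 6 columns.

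The 2 KLF genes differed. The Klf2 promoter region (chr8:72318660-72319347) had a level of 6.29, at the 99.2 percentile, and 3 further regions passed the minimum, at 2.68 kb upstream (2.39) and at 14.8 kb and 15.4 kb downstream (2.69 and 3.01). No region of Klf4 did: its highest, at the promoter (chr4:55532244-55533459), had a level of 1.98, just under the minimum of 2, with signals of 0.204, 0.199, 0.281 and 0.271 with 4HT and 0.179, 0.139, 0.225 and 0.198 with EtOH. The 4HT signal was the higher in each fraction, but in G1 the order turned as a multiple of the 1-read value (1.38 with 4HT, 1.78 with EtOH). The groups overlapped, and the region was not tested.

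Esrrb had its accessible regions deep in the gene and not at the upstream TSS (position 86361117 of chromosome 12). No region overlapped the 250 bases before that TSS. A further annotated TSS at position 86421644 had a region of level 1.47. No TSS window had its midpoint within 650 bp of this further TSS, so the window level of Esrrb describes the upstream TSS only. The 9 tested regions lay in the gene body, 89.9 kb to 143 kb from the upstream TSS, which is 29.4 kb to 82.9 kb from the further one. The strongest of these (chr12:86501563-86502238) had a level of 5.77, at the 98.9 percentile, and the others 2.08 to 3.35. Tfcp2l1 likewise had its highest region inside the gene, 20.2 kb from the TSS (chr1:118647912-118648407, level 4.13), beside levels of 2.56 at 14.8 kb, 2.81 at 17.9 kb and 2.59 at the promoter. At Tbx3 the promoter region (chr5:119670285-119671092) had 4.43 and a region within the gene, 9.56 kb from the TSS, 3.30.

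Dppa5a, the shortest of the 10 genes, had 4 tested regions. These were the promoter region (chr9:78368115-78368361, level 3.26), regions 1.31 kb and 6.59 kb upstream (2.86 and 3.04) and a region 3.20 kb downstream of the TSS (2.48). The one 6.59 kb upstream lies nearer to Ooep, an oocyte gene, than to Dppa5a.

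The windows of other pluripotency genes and of lineage markers place these levels. In a list of 24 other pluripotency genes, 18 had a window; their median level was 1.58, led by Stat3, the transducer of LIF signals (2.49), and Fbxo15 (2.36). Formative and primed genes (10 of 11 with a window) had a median of 1.39, led by the ETS factors Etv5 (2.25) and Etv4 (1.64). Markers of other cell types lay near or under the protein-coding median: primitive endoderm 1.16 (5 of 6 genes, led by Gata6 at 1.22 and Pdgfra at 1.19), trophectoderm 1.38 (4 of 6, Eomes 1.41, Krt8 1.40) and neuroectoderm 1.34 (6 of 6, Tubb3 1.67, Nes 1.43). The median was 1.38 for mesendoderm (6 of 6, Tbx6 1.86, Foxa2 1.46) and 1.31 for fibroblast markers (5 of 6, Fn1 1.65, Vim 1.55). Not every gene of the labelled cell type stood out. Among the 10, Esrrb (1.25, at its upstream TSS) lay under the protein-coding median. So did Nr0b1 (1.14), Nr5a2 (1.24), Dppa4 and Lin28a (1.29 each), Tcl1 (1.33) and Prdm14 (1.35, just under) among the other pluripotency genes. These other pluripotency genes were named after their values were seen. An open window does not show that a gene is expressed.

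**Figure D3:**
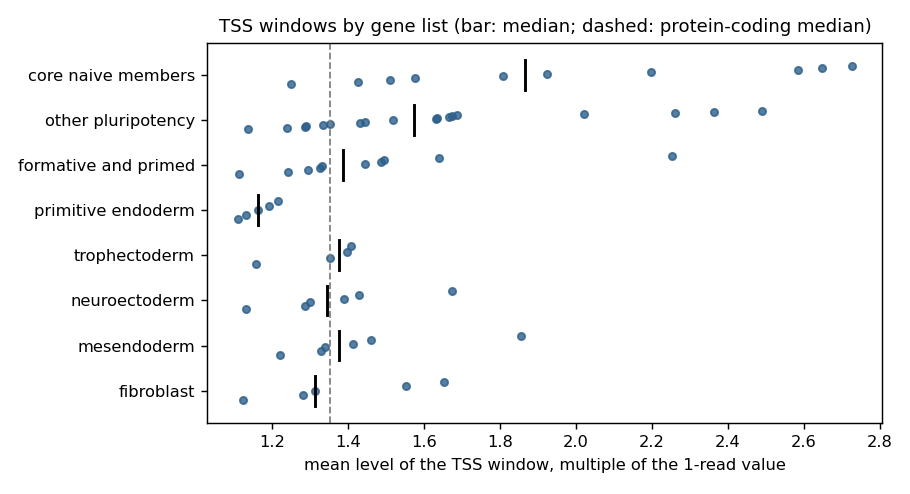
Mean level of the TSS window (x axis, multiple of the 1-read value) of each gene with a read in all columns, by gene list; bars are list medians and the dashed line is the median of protein-coding windows (1.35). The core naive genes have the highest list median (1.87) and primitive endoderm markers the lowest (1.16) of the 8 lists.

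The comparison of 4HT with EtOH asked whether accessibility at these genes changed after FOXD3 depletion. No window of the 9 tested passed: the treatment differences were small and went both ways, with a median of -0.02 on the log2(signal + 0.1) scale and 4 of 9 above 0. The median over all 15323 tested windows was 0.00, with 50.2% above 0. By limma's moderated test over all windows with Benjamini-Hochberg adjustment, 0 of the 9 were called, against 0.0131% of all tested windows. An unadjusted p under 0.05 was found for 1 of the 9 and for 5.28% of all tested windows. The 4 fractions serve as the repeats of the treatment in this fit, so its p-values measure the spread among pooled columns and not among cultures.

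The lowest difference was that of Dppa5a, at -0.20 (SE 0.10, limma adjusted p = 0.942), and after centring it was lower with 4HT in 4 of 4 fractions. The centred within-fraction differences were -0.13 in G1, -0.24 in ES, -0.29 in LS and -0.14 in G2. As deposited, its G1 signal was higher with 4HT (0.224 against 0.204), so that the sign in G1 depends on the centring. On the centred values Dppa5a was the only 1 of the 9 whose sign held in all 4 fractions, and 12.9% of all tested windows had that. In the signals as deposited, Tbx3 was lower and Klf4 higher with 4HT in all 4 fractions. On the centred values, in 0 of the 9 did the 4HT columns lie wholly on one side of the EtOH columns, which 2.54% of all tested windows did.

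Tfcp2l1 and Tbx3 differed by -0.14 each (SE 0.10 each, limma adjusted p = 0.969 and 0.970), and Zfp42, Pou5f1 and Nanog by -0.03, -0.02 and 0.03. Klf2, Klf4 and Sox2 were higher with 4HT by 0.10, 0.10 and 0.12 (SE 0.11, 0.08 and 0.10, limma adjusted p = 0.979, 0.970 and 0.971). Single fractions departed further without a shared direction. Sox2 differed by 0.58 in G1 and by 0.02, -0.18 and 0.04 in ES, LS and G2. Zfp42 differed by -0.34 in G1 and 0.37 in G2, Klf2 by 0.41 in ES and -0.25 in G2, and Tfcp2l1 by -0.42 in G2. A difference within 1 fraction rests on 1 column per treatment and has no test. The G1 values compare the shallowest column with one of 9.96 M reads, and the part of depth in them was not tested.

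**Figure D4:**
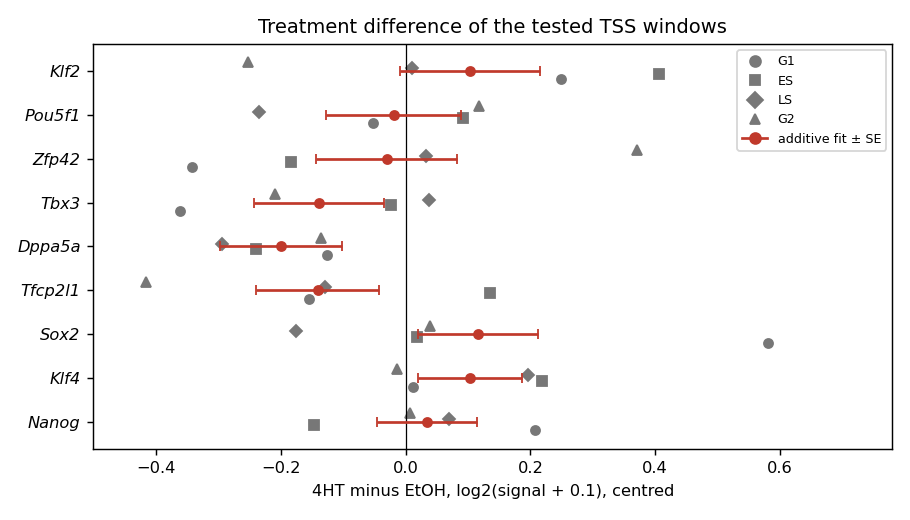
Difference of 4HT minus EtOH (x axis, log2(signal + 0.1), centred) for the 9 tested windows; grey symbols are the 4 fractions and red points the additive fit with its SE. The grey symbols (centred values) lie on both sides of 0 for 8 genes, and all 4 lie below 0 for Dppa5a.

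The other lists showed no called window either, by limma with adjustment over all windows. Of 14 tested windows of other pluripotency genes 0 were called and 1 had p under 0.05, with a median of -0.04 and 3 above 0; Lifr, the LIF receptor, had the lowest value (-0.29), followed by Tdgf1 (-0.11). Of 7 formative and primed genes 0 were called, 0 had p under 0.05 and 6 were above 0 (median 0.06), with Lef1 at -0.15 and Foxd3 itself at 0.10 (level 1.49). What part of Foxd3 the depletion removes is not in the labels, and its window does not check the depletion. The tested markers of other cell types, 3 of trophectoderm, 4 of neuroectoderm, 5 of mesendoderm and 3 of fibroblasts, gave 0 called and 0 at p under 0.05, with medians of -0.03, -0.04, -0.01 and 0.01. The widest among them were Cdx2 at -0.08 and Krt8 at 0.07, Sox11 at -0.10 and Tubb3 at -0.08, Tbx6 at -0.14 and Mesp1 at 0.09, and Col1a1 at 0.08 and Vim at -0.07. No primitive endoderm window reached the minimum for testing.

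The nearby regions likewise gave no call. Of the 34 tested, 0 were called by limma with adjustment over all 11010 regions (smallest adjusted p 0.891), and 5 had p under 0.05, against 5.42% of all tested regions; the background of calls was 0%. Their median difference was 0.02, with 18 of 34 higher with 4HT and a range of -0.58 to 0.50. By place, the median was -0.15 for 7 promoter regions, 0.12 for 13 regions in gene bodies, -0.05 for 7 upstream and 0.01 for 7 downstream.

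The promoter region of Tfcp2l1 (chr1:118627729-118628262) had the lowest value. Its signals were 0.147, 0.376, 0.176 and 0.134 with 4HT, in the order G1, ES, LS, G2, against 0.347, 0.431, 0.363 and 0.257 with EtOH. It was lower with 4HT in all 4 fractions (-0.99, -0.09, -0.65 and -0.60), although 4HT ES lay above 3 of the EtOH columns. The fitted difference was -0.58 (SE 0.21, limma adjusted p = 0.891). The 4HT G1 column stood at its 1-read value, the lowest that signal can take. The downstream region of Dppa5a had the same fitted value, -0.58 (SE 0.25, limma adjusted p = 0.906), but was higher with 4HT in ES by 0.50. Its 4HT G1 and 4HT G2 columns both stood at their 1-read values.

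The region 6.59 kb upstream of Dppa5a (chr9:78374249-78375325) was higher with 4HT in every fraction, as deposited and after centring. Its signals were 0.474, 0.351, 0.406 and 0.336 with 4HT and 0.267, 0.283, 0.256 and 0.273 with EtOH. As a multiple of the 1-read value the order turned in G2 (2.98 with 4HT, 3.06 with EtOH). After centring, this region was the only 1 of the 34 whose groups did not overlap, which held for 2.81% of all tested regions. As deposited, the groups did not overlap at the Esrrb regions at 89.9 kb and 103 kb either. The lowest 4HT signals there were 0.254 and 0.250, and the highest EtOH signals 0.252 and 0.243. The fitted difference was 0.42 (SE 0.19, limma adjusted p = 0.910). The same sign in all 4 fractions, also after centring, was found in 5 of the 34 and in 13.4% of all tested regions. Beside the Tfcp2l1 promoter and this region, they were the region 12.6 kb from the Zfp42 TSS (-0.43) and the Esrrb regions at 89.9 kb and 103 kb, which were higher by 0.50 and 0.45 (limma adjusted p = 0.906 and 0.917).

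The strong distal regions had small differences. The Zfp42 region 13.9 kb upstream differed by -0.05 (SE 0.16), the Nanog region 4.73 kb upstream by -0.06 (SE 0.17) and the strongest Esrrb region by 0.04 (SE 0.18). The Pou5f1 region 1.90 kb upstream stood 0.30 higher with 4HT (SE 0.17, limma adjusted p = 0.934), in 3 of 4 fractions. Its signals were 0.716, 0.535, 0.791 and 0.844 with 4HT and 0.521, 0.425, 0.930 and 0.539 with EtOH, and LS was the fraction that went the other way.

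The comparison of the fractions asked whether accessibility at these genes varied with the cell cycle. ES, LS and G2 were each compared with G1 over both treatments, and the 3 comparisons share the G1 columns. No window or nearby region of the 10 genes was called by limma in any of them. The nearby regions, however, lay mostly above G1 in ES and in LS. The widest difference was at the Zfp42 promoter region in LS, and at the region 1.12 kb upstream of Pou5f1 in ES.

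For the 9 windows the median difference from G1 was 0.09 in ES, 0.13 in LS and -0.06 in G2, with 5, 6 and 3 of 9 above 0. In each comparison 0 were called by limma, against 0.0196% of all tested windows in ES, 0.0718% in LS and 0.0457% in G2. An unadjusted p under 0.05 was found for 1, 1 and 0 of the 9, against 6.78%, 6.90% and 5.64% of all tested windows. The window with p under 0.05 was that of Zfp42, 0.42 higher in ES (SE 0.16, limma adjusted p = 0.636) and 0.47 higher in LS (SE 0.16, limma adjusted p = 0.520).

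For the 34 regions the median difference from G1 was 0.26 in ES, 0.30 in LS and 0.03 in G2, with 24, 26 and 19 of 34 above 0. Over all 11010 tested regions it was 0.00 in each, with 49.7%, 49.6% and 49.3% above 0. The 1419 regions with a level of at least 4 had medians of 0.01, 0.01 and 0.02. With a pseudocount of 0.5, which shrinks log2 differences, the medians of ES and LS were 0.12 and 0.16 (24 and 26 of 34 above 0). They were 0.14 and 0.15 with no minimum level (47 and 45 of 68 above 0). By limma 0 of the 34 were called in each, against a background of 0% in ES, 0% in LS and 0.0182% in G2. An unadjusted p under 0.05 was found for 7 regions in ES and 7 in LS, against 7.13% and 7.28% of all tested regions, and for 2 in G2, against 5.90%. Regions higher than G1 with both treatments numbered 15 of 34 in ES, 18 in LS and 8 in G2, against 26.2%, 26.3% and 24.7% of all tested regions.

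The Zfp42 promoter region had the widest difference between LS and G1. Its signals were 0.287, 0.658, 0.830 and 0.588 with 4HT, in the order G1, ES, LS, G2, against 0.497, 0.738, 1.20 and 0.465 with EtOH. LS was the highest and ES the next with either treatment. The difference from G1 was 1.02 in LS (SE 0.26, limma adjusted p = 0.502) and 0.82 in ES (SE 0.26, limma adjusted p = 0.556). The region 13.9 kb upstream of Zfp42 was 0.83 higher in LS (SE 0.23, limma adjusted p = 0.529) and 0.71 higher in ES (SE 0.23, limma adjusted p = 0.556).

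The Pou5f1 region 1.12 kb upstream had signals of 0.185, 0.499, 0.482 and 0.267 with 4HT and 0.229, 0.390, 0.566 and 0.257 with EtOH. ES and LS lay above both G1 and G2 in either treatment. It differed from G1 by 0.86 in ES (SE 0.28, limma adjusted p = 0.596) and 0.89 in LS (SE 0.28, limma adjusted p = 0.530). The region 1.90 kb upstream of Pou5f1 did not share this, at -0.21 in ES and 0.25 in LS. At Nanog the region 4.73 kb upstream had signals of 0.501, 0.689, 0.632 and 0.444 with 4HT and 0.468, 0.612, 0.856 and 0.539 with EtOH, and was 0.44 higher in ES and 0.35 higher in LS (SE 0.24 each).

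Among the ancillary factors, the Tbx3 region 9.56 kb into the gene was 0.73 higher in ES and 0.62 in LS, and the Klf2 region 14.8 kb downstream 0.80 and 0.57. The Tfcp2l1 region 20.2 kb into the gene was 0.72 higher in LS. Within Esrrb neighbouring regions went opposite ways in LS, with the region 143 kb from the upstream TSS at 0.96 relative to G1 and that at 138 kb at -0.86 (limma adjusted p = 0.530 each). The promoter regions of Tbx3 and Sox2 stood at -0.19 and -0.06 in LS. In G2 the widest difference was 0.91 at the Sox2 region 18.6 kb downstream (SE 0.40, limma adjusted p = 0.836), where 4HT G1 was at the 1-read value.

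**Figure D5:**
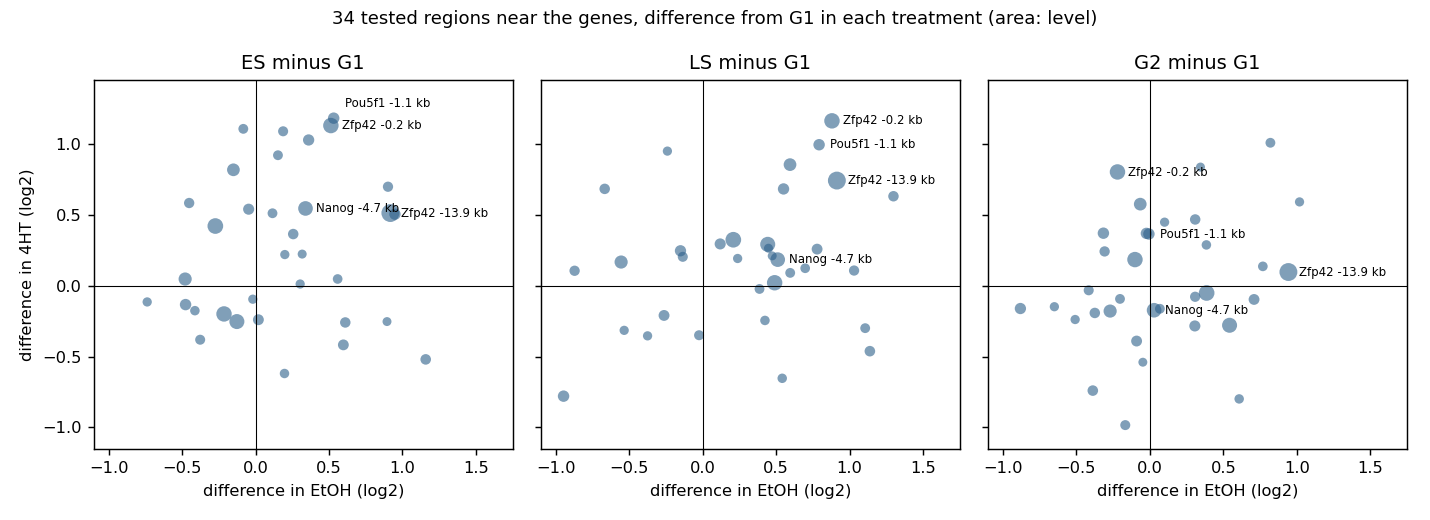
Difference from G1 (log2(signal + 0.1), centred) of the 34 tested regions in EtOH (x axis) and in 4HT (y axis) for ES, LS and G2; the area of a point follows its level. Points at the upper right were higher than G1 with both treatments (15, 18 and 8 of 34), and the Zfp42 and Pou5f1 regions named in the panels lie there in ES and LS.

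The wider surroundings of the genes were examined for the same contrasts. Other tested regions within 500 kb had a median difference from G1 of 0.13 in ES and 0.07 in LS, taken as the median over the 10 genes. With the median of those neighbours subtracted, the 34 regions had a median of 0.10 in ES (20 above 0), 0.17 in LS (23 above 0) and 0.01 in G2 (18 above 0). At Zfp42 the 4 neighbours had medians of 0.29 in ES and 0.01 in LS, against 0.71 and 0.83 for its own 3 regions. At Dppa5a the 14 neighbours stood at 0.34 in ES, close to 0.41 for its own regions, and at Klf4 the 6 neighbours stood at 0.35 in LS. Fractions sorted by DNA content differ in the copies of each locus, and copies and accessibility per copy cannot be told apart in this signal.

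Regions near the other lists gave medians from G1 of -0.04 in ES and -0.14 in LS for 35 regions of other pluripotency genes, and 0.08 and -0.12 for 17 of formative and primed genes. The 7 regions of mesendoderm genes gave 0.11 and 0.12, the 5 of neuroectoderm genes 0.10 and -0.17, the 4 of fibroblast genes -0.14 and -0.15, and the 3 of trophectoderm genes -0.37 and -0.20. The difference between these lists and the 10 genes was not tested. G1 was the shallowest column with 4HT (6.78 M reads) and among the deeper ones with EtOH (9.96 M reads), and the part of depth in the differences from G1 was not tested.

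The 9 tested windows did not vary together over the 8 columns. The Pearson correlation of each gene with the mean profile of the others ran from -0.558 for Sox2 to 0.443 for Nanog, as a description over 8 columns that share 2 treatments and 4 fractions. Among 1755 other protein-coding windows of level 2 or more, the profiles most like the mean of the 9 were those of Tmem115 (r = 0.928), Kmt5c (0.8999) and Inpp5a (0.887). These are the top values of a ranking over 8 columns, and the likeness was not tested.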

How the data were processed

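The authors deposited coverage signal, scaled to library size, for accessible regions and for TSS windows in 8 pooled columns, of which all were used; the average over bases with a read was read from the values. The submitters' processing notes name mm10, featureCounts and DESeq2, without saying what each tool did. How reads were aligned, covered and pooled is not given in the sources used here.

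Gene positions came from RefSeq tables of GRCm38.p6. Intervals with a read in all 8 columns and a mean level of at least 1.3 (15323 windows) or 2 (11010 regions) were tested. Values were taken as log2(signal + 0.1), which understates folds of low intervals, and centred by cyclic loess. They were fitted genome-wide in limma 3.58.1 (R 4.3.3) with treatment and fraction as additive terms, 3 residual degrees of freedom, and trended, robust moderation. P-values were adjusted by the Benjamini-Hochberg method over the whole table, with a threshold of 0.05. The fit was tested on simulated data with an equal spread for every interval, no 1-read floor and changes made only as rises in either treatment. That test does not show how well losses at weak intervals are found. No count model was used, since signal is not a count.

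All 10 genes were named, with the tested regions near them or, where there was none, the region of highest level. At Esrrb some tested regions were given only by their range of distance and level. Of each other list the 2 genes of highest level and the 2 of widest treatment difference were named, and the 3 windows of most similar profile. The members and lists were chosen with earlier results of these data known. Alternatives were other pseudocounts, coverage minimums, scalings and flanks, plain moderation, and each fraction left out.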

Additional observations from a re-analysis of the deposited data

How the results depend on the processing

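Called members numbered 0 in 76 of 76 alternative values, whose smallest adjusted p by limma ran from 0.304 to 0.9999. The median treatment difference of the windows ran from -0.0488 to 0.0202 over the omission of each fraction and among these was above 0 only without LS; with no coverage minimum it was 0.0081. Single windows, none of them called, crossed 0 when a fraction was omitted: Klf2 ran from -0.000826 to 0.222 (below 0 without ES), Pou5f1 from -0.0641 to 0.0497 (above 0 without LS), and Zfp42 from -0.163 to 0.0767 (the latter without G1, and 0.0147 without ES). Sox2 ran from -0.0387 to 0.215 and Nanog from -0.0228 to 0.0936 (both below 0 without G1). Dppa5a, Tfcp2l1, Tbx3 and Klf4 kept their direction in these omissions. The cause was not tested.

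The region medians of 0.26 (ES) and 0.30 (LS) depended on the scale. With a pseudocount of 2, which shrinks every log2 difference at signals of this size, they were 0.04 and 0.05. The counts above 0 were then 24 and 25 of 34, against 24 and 26 with a pseudocount of 0.1. Without centring the medians were 0.22 and 0.42, where those of all tested regions were -0.05 and 0.10. Within 50 kb of the gene bodies there were 191 regions, and within 10 kb 92. The order of window levels had a rank correlation of 0.988 or more with that of the signal as deposited and of the EtOH columns alone. Both of these use the same windows. With the highest region overlapping each window it was 0.967, without Esrrb, whose window overlapped no region. Settings on region medians were chosen after seeing the data. No paired analysis was possible because the pooled columns carry no replicate numbers. Depth limits weak windows such as those of Esrrb and Nanog, whose signal lies close to the 1-read value, under which it cannot fall.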
